A study of Mus musculus with 19 samples.

Results

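H3K4me3 was compared at the autosomal recombination hotspots of CAST/SPRT and B6/SPRT hybrid males, 28114 hotspots of the 71181 autosomal hotspots that the 5 tables of the series list. The SPRT allele was present in both hybrids, so its hotspots were paired by position. Of 9247 SPRT hotspots in B6/SPRT and 5123 in CAST/SPRT, 5025 had centers within 500 bp of each other, and 4867 of these pairs had at least 50 SNP-carrying reads in both mice. The other allele differed between the hybrids, and the 4122 B6 hotspots of B6/SPRT and the 3470 CAST hotspots of CAST/SPRT were each compared with the SPRT hotspots of the same table. Of them, 3973 and 3390 reached 50 reads.

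Both hybrids were adult male B6SPRTF1 mice, the sons of a B6 female and a SPRET/EiJ male, and whole testis was assayed. B6/SPRT was the wild-type hybrid. CAST/SPRT carried, in place of the B6 allele, a B6 Prdm9 gene whose DNA-binding zinc-finger array had been exchanged for that of M. m. castaneus, and Prdm9 was heterozygous with SPRT in both. Each genotype had 2 ChIP and 2 input samples. Hum/SPRT, with a humanized zinc-finger array and 3 ChIP and 3 input samples, served as a yardstick.

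PRDM9 binds DNA through its zinc fingers and places H3K4me3 on the nucleosomes beside its binding site, and meiotic double-strand breaks then form there. The break is resected to single-stranded DNA that DMC1 coats, so H3K4me3 reads binding and DMC1 reads breaks in progress. In a hybrid, SNPs show from which homolog the marked DNA came. A motif worn away on 1 homolog leaves the mark on the other. The B6 fraction is the percentage of SNP-carrying H3K4me3 reads from the B6 chromosome, and a hotspot was called matched at 25 to 75%, ends included.

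At 7 SPRT pairs the centers called in both mice fell within the 250 bases before an annotated gene start. The stretch before 3 of these starts shows how close the calls from separate mice lay to each other. Sequences are of the B6 reference strain from RefSeq (GRCm38.p6), 5′ to 3′ on the strand of the gene, and capitals mark the bases from the center called in B6/SPRT to that called in CAST/SPRT.
Gm34419, chr8:35095110-35095359, plus strand: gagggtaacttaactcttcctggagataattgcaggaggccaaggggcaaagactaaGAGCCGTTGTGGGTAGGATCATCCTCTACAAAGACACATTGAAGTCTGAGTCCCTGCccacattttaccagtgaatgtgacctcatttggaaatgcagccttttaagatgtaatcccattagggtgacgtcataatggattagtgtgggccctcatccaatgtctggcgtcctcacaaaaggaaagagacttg
Arhgap25, chr6:87533260-87533509, minus strand: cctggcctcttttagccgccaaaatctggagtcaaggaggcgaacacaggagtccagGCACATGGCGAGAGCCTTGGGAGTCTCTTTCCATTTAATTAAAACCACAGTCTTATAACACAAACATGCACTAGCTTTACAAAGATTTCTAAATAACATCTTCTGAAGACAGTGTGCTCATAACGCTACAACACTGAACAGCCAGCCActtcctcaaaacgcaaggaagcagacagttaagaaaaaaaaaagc
Gm32499, chr15:32199224-32199473, plus strand: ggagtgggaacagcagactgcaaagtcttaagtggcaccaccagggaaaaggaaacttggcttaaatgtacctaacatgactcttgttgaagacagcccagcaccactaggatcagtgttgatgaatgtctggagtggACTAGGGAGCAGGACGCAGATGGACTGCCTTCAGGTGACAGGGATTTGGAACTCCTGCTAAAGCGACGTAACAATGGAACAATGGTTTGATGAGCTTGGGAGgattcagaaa

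The centers were 193 bases before the start of the lncRNA gene Gm34419 in B6/SPRT and 137 in CAST/SPRT, and the capitals span 57 bases. Before the protein-coding gene Arhgap25 they lay at 193 and 46 bases and the capitals span 148. Before Gm32499, also a lncRNA gene, they lay at 11 and 112 bases, with 102 bases in capitals. The B6 fraction in B6/SPRT and CAST/SPRT was 45.5 and 39.9% at Gm34419. It was 49.6 and 61.8% at Arhgap25, and 95.2 and 96.7% at Gm32499. The 95% Wilson intervals of the mice overlapped at all 3, so these windows show 2 pairs near parity and a pair marked almost only on B6. CG dinucleotides, which are dense at many promoters, numbered 1 to 5 in the windows of the 7 pairs. Over the same 250 bases of all 32851 promoters in the table the median was 6, and 49.6% of promoters had 5 or fewer.

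The deposited values were 1 column per genotype. With no values per sample there was no replicate error and no test between the genotypes, and the 95% intervals below cover counting error or the spread over hotspots within a table. Whole testis was assayed, so a change in the number of marked cells and a change of the mark per cell cannot be told apart. Precision followed depth. The median input coverage of the 1000 bp window was 19 in B6/SPRT and 28 in CAST/SPRT, and the median ChIP coverage was 132 and 162. The tables differed in the authors' enrichment, whose formula is not stated. It had a median of 6.25 in B6/SPRT, 28.4 in CAST/SPRT and 5.02 in Hum/SPRT. Enrichment plus 1 was at the median 1.01, 5.08 and 0.557 times the quotient of ChIP and input coverage, a scale particular to each table. Read as specific over background signal, enrichment puts the background share of the reads, 1/(1 + enrichment), at a median of 13.8, 3.40 and 16.6%. That reading is an assumption and was not tested. For the main summaries of the B6 fraction, the value with this share removed, taken as even between the homologs, is given as well, whereas B6 fractions of single hotspots are as deposited.

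The SPRT allele was the same in both mice and its partner differed. The order of SPRT hotspots by H3K4me3 was largely kept. The ratio of ChIP to input coverage was ranked over the 5025 pairs within each mouse, since its scale differs between tables, and the Spearman correlation between the ranks was 0.856 across pairs. In 2756 pairs (54.8%, interval 53.5 to 56.2%) the ranks lay within 10 percentile points, and the median distance was 8.81 points. The rank was over 10 points higher in CAST/SPRT at 1137 pairs (22.6%) and over 10 points lower at 1132 (22.5%). Among all 5424 pairs of the 2 tables, whatever the allele, 22% were higher, 23.2% were lower and 45.2% were over 10 points apart. The 5025 SPRT pairs made up most of these, so the shares were bound to be close and no contrast can be drawn. This holds for each share of all pairs given below, also where it is called background. Only 565 pairs (11.2%) were over 25 points apart.

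Hum/SPRT and B6/SPRT gave similar values, with a Spearman correlation of 0.876 and 57.1% of 9128 SPRT pairs within 10 points (43.1% of all their pairs lay farther apart). Their pairs were a larger set that included hotspots without a CAST/SPRT partner. Ranks agreed more in ChIP than in input. The ranks of ChIP coverage alone had a Spearman correlation of 0.939 and 72.9% of pairs within 10 points, whereas the ranks of input coverage had 0.296. The rank difference of the ratio had a Spearman correlation of -0.633 with that of the input, a relation built in by the shared input column.

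The 3 pairs that were strongest in both mice outside gene starts were chosen by their ranks, and their B6 fractions were not part of that choice. The ratio counts reads of both homologs, however, so the 2 values are not independent. On chromosome 13 a pair 3.39 kb from Fgfr4, a receptor for fibroblast growth factors, had the ratio 54.6 in B6/SPRT, 25.4 in CAST/SPRT and 81.4 in Hum/SPRT. Its B6 fraction was 57.2, 55.3 and 55.1%. Within Asap3 on chromosome 4, a gene for an Arf GTPase-activating protein, the ratios were 44.3, 23.2 and 60.1 and the B6 fractions 57.1, 64.6 and 60.6%. On chromosome 17, 0.56 kb from the tRNA gene n-TKctt12, the ratios were 38.8, 23.6 and 59.1 and the fractions 52.2, 57.1 and 54.0%. All 3 pairs were matched in all 3 hybrids. At Asap3 the Wilson intervals of B6/SPRT (54.9 to 59.2%) and CAST/SPRT (62.1 to 67.0%) did not overlap, and at the other 2 pairs they did.

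The pairs with the largest changes of rank were chosen for those changes, and their values are a description. Within the lncRNA gene 1700112J16Rik on chromosome 7 the rank was 21.0 in B6/SPRT and 83.1 in CAST/SPRT, from ChIP counts of 301 and 340 over input counts of 39 and 38. Its ChIP counts were close in the mice, while the median over the paired hotspots was 219 in B6/SPRT and 148 in CAST/SPRT. Within Xrn1, which encodes an RNA exonuclease, on chromosome 9 the rank was 29.1 and 90.3, and within Arsb, a lysosomal sulfatase gene, on chromosome 13 it was 27.1 and 87.8. At these 3 pairs the B6 fraction was 69.7, 68.6 and 54.3% in B6/SPRT and 64.6, 62.7 and 46.1% in CAST/SPRT, lower each time. The pairs at 1700112J16Rik and Xrn1 lay 1.01 and 1.35 kb from a gene start. The rank was lower in CAST/SPRT within Rhpn2 on chromosome 7, at 92.9 and 32.5, where ChIP was 369 and 111 over input of 17 and 28. It was also lower 127 kb from Gm46558 on chromosome 16, at 75.4 and 17.2, and 4.04 kb from Gm28075 on chromosome 7, at 94.2 and 36.7. Inputs of 13 to 36 reads at these last 2 pairs are small denominators.

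The B6 fraction at SPRT hotspots was closely kept, with a Pearson correlation of 0.974 and a Spearman correlation of 0.952 across the 4867 pairs. SPRT hotspots were marked mainly on the B6 chromosome in both mice, and more so in CAST/SPRT, where the median was 83.5% against 78.4% in B6/SPRT. The median of the differences was +2.34 points (interval 2.21 to 2.47), and the median was positive on 19 of 19 autosomes, from 1.73 to 3.17 points. The fraction was higher in CAST/SPRT at 3395 pairs (69.8%, against 69.2% of all pairs of the tables). With the background share removed, the median difference was 0.165 points (interval 0.0279 to 0.310), 51.7% of pairs were higher in CAST/SPRT and 11 of 19 autosomes had a median above 0. Hum/SPRT differed from B6/SPRT by a median of -0.0421 points at 8934 pairs. That larger set included hotspots without a CAST/SPRT partner, which were weaker and nearer to parity, so the values are not like for like. Whether background accounts for the CAST/SPRT difference was not tested.

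**Figure D1:**
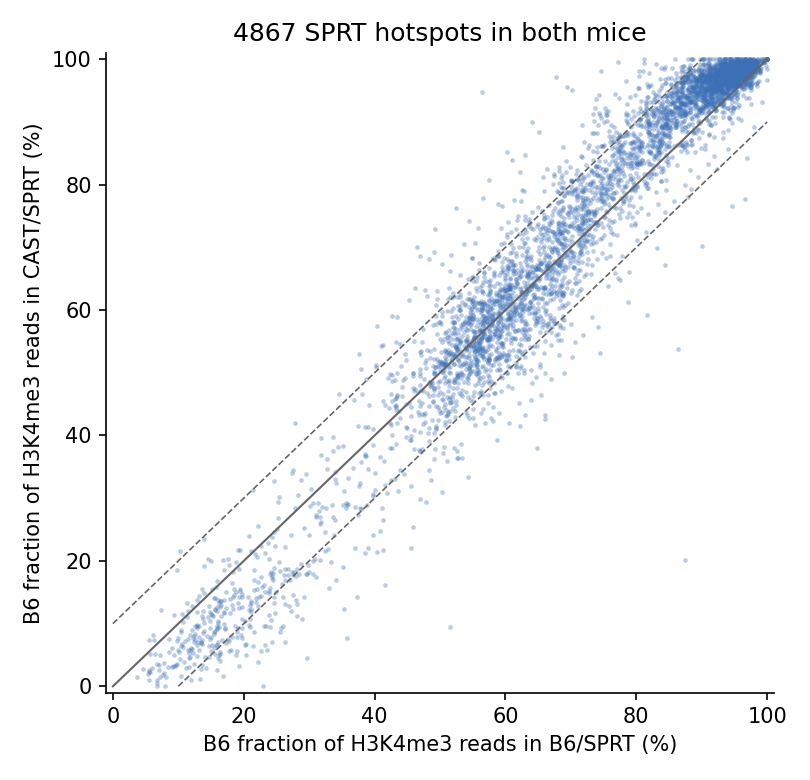
B6 fraction of the H3K4me3 reads (percent) at 4867 SPRT hotspots called in both mice, B6/SPRT on the x axis and CAST/SPRT on the y axis, 1 point per pair. The solid line marks equal fractions and the dashed lines a difference of 10 points, beyond which 473 pairs lie; above 60% most points sit over the solid line and below 40% most sit under it.

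Large differences were few. At 473 pairs (9.72%, interval 8.92 to 10.6%) the fractions were over 10 points apart, against 10.8% of all pairs of the tables. Of them 261 were higher in CAST/SPRT (5.36%, background 5.98%) and 212 lower (4.36%, background 4.85%). In Hum/SPRT against B6/SPRT 554 of 8934 SPRT pairs (6.20%, background 7.06%) were over 10 points apart. The 95% Wilson intervals of the reads did not overlap at 1080 pairs between CAST/SPRT and B6/SPRT (22.2%, background 23.2%) and at 535 between Hum/SPRT and B6/SPRT (5.99%, background 7.09%). The Hum/SPRT pairs are the larger set named above, with other read depths, so their shares are not like for like with those of CAST/SPRT. With the assumed background share removed, 8.51% of the CAST/SPRT and B6/SPRT pairs were over 10 points apart. Of them 196 were higher and 218 lower, so the lean to the higher side was not seen under that assumption.

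Fewer pairs were matched in CAST/SPRT. Of the 4867 pairs, 1990 (40.9%) were matched in B6/SPRT and 1736 (35.7%) in CAST/SPRT, 1699 of them in both. A further 291 were matched only in B6/SPRT, and 226 of these lay above 75% in CAST/SPRT. Only 37 were matched in CAST/SPRT alone. Both ends filled: pairs above 90% numbered 1620 in B6/SPRT and 2110 in CAST/SPRT, and pairs below 10% numbered 41 and 159. With the background share removed, 38.1 and 34.6% were matched.

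The difference had opposite signs on either side of parity. To place the pairs without using either mouse, 4781 of them were binned by their B6 fraction in Hum/SPRT. At 250 pairs with 10 to 25% in Hum/SPRT the fraction was 16.4% in B6/SPRT and 10.7% in CAST/SPRT, with a median difference of -6.15 points (interval -6.74 to -5.31), and 89.2% of them were lower in CAST/SPRT. At 128 pairs with 25 to 40% it was -6.32 points (-8.49 to -4.50). At 873 pairs with 40 to 60% the median difference was -0.845 points (-1.35 to -0.265). At 923 pairs with 60 to 75% it was +1.90 points (1.52 to 2.26). At 974 pairs with 75 to 90% the fraction was 84.3% and 89.96%, the difference was +5.15 points (4.79 to 5.44) and 87.1% were higher. As deposited, SPRT hotspots were more one-sided in CAST/SPRT, whichever homolog carried the mark.

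With the assumed background share removed, the differences away from parity were smaller. The median difference became -3.49 points (interval -4.40 to -2.78) in the bin of 10 to 25% and +3.06 points (2.67 to 3.39) in the bin of 75 to 90%. Near parity, in the bin of 40 to 60%, it was -0.978 points (-1.56 to -0.513), no nearer to 0 than as deposited. Above 90% it went from +2.94 to 0, where corrected values reach the ceiling of 100%. The DMC1 reads gave other values. In the bins of 10 to 25%, 40 to 60%, 60 to 75% and 75 to 90% the median difference in the B6 fraction of DMC1 reads was +2.82 points (interval 1.58 to 3.99, 102 pairs), +1.97 (0.483 to 2.91, 571 pairs), +2.61 (1.93 to 3.28, 562 pairs) and 0 (-0.244 to 0.141, 909 pairs). The sign was that of H3K4me3 in the bin of 60 to 75% and opposite in the bins of 10 to 25% and 40 to 60%. Above 90% the DMC1 difference was -0.726 points (-0.866 to -0.593, 1579 pairs), opposite to H3K4me3 as deposited. In the bins of 0 to 10% and 25 to 40% it was +1.07 (-0.621 to 5.06, 22 pairs) and +1.26 (-0.912 to 3.02, 54 pairs). The intervals of these last bins include 0. At 10 to 25% the median DMC1 fraction was 3.59% in B6/SPRT and 7.05% in CAST/SPRT, and above 90% it was 99.5 and 98.7%. Fractions so near the floor or the ceiling could move mainly inward. The opposite signs in the bins of 10 to 25% and above 90% are therefore no contrast with H3K4me3. Across 3863 pairs with both readouts the Spearman correlation between the differences in DMC1 and in H3K4me3 was -0.0126, in mice of the same genotypes but separate libraries.

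**Figure D2:**
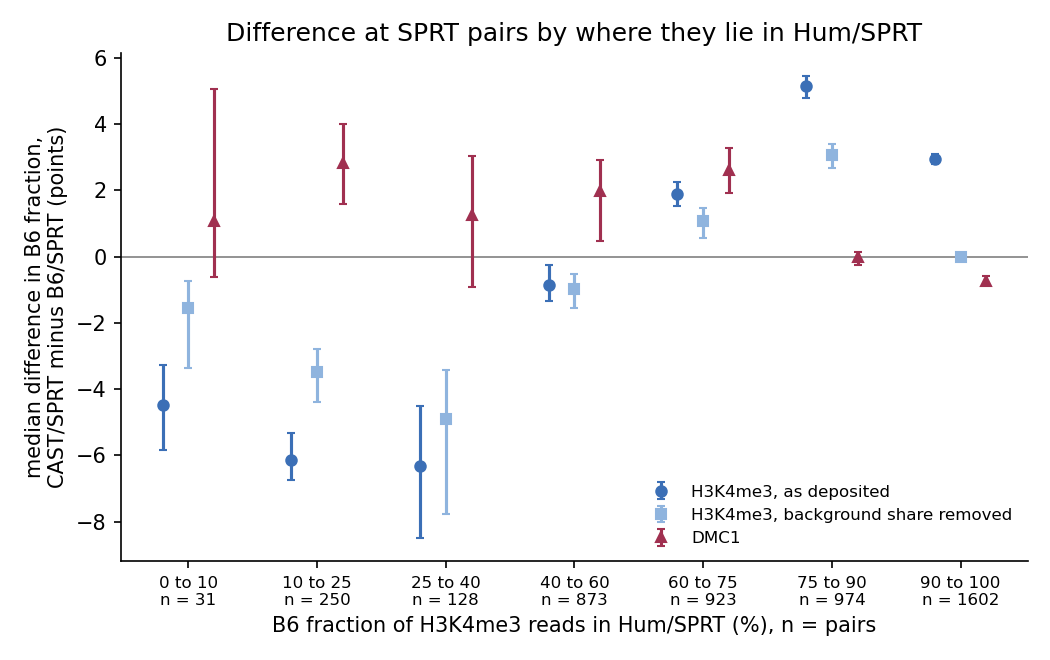
Median difference in B6 fraction at SPRT pairs, CAST/SPRT minus B6/SPRT in percentage points, by the pair's B6 fraction in Hum/SPRT, with n H3K4me3 pairs per bin and 95% intervals from order statistics over pairs; DMC1 points rest on 22 to 1579 pairs per bin. H3K4me3 as deposited runs from -6.32 points at 25 to 40% to +5.15 at 75 to 90%. The values with the assumed background share removed lie nearer to 0 in each bin but that of 40 to 60%. DMC1 lies between -0.726 and +2.82.

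As deposited, the H3K4me3 shift kept its sign in weak and strong pairs on either side, and changed sign among matched pairs. On the B6 side of Hum/SPRT (above 75%) the median difference was 3.897 points in the lowest quartile of the B6/SPRT ratio and 3.29 in the highest. On the SPRT side (below 25%) it was -6.29 in the lowest quartile over 142 pairs and -6.28 in the highest. The highest held only 7 pairs, too few to compare weak with strong. Among pairs matched in Hum/SPRT the median difference was -1.37, -0.380, 0.863 and 0.369 points from the lowest quartile to the highest. The rank of the ratio moved with side at the B6 extreme: pairs above 90% in Hum/SPRT had a median rise of 2.90 percentile points in CAST/SPRT (interval 1.98 to 3.93).

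A few single pairs moved far. The largest fall was on chromosome 16, 18.3 kb from the lncRNA gene 4930553E22Rik, with centers at 84393821 in B6/SPRT and 84393567 in CAST/SPRT. The B6 fraction was 87.4% of 127 reads (Wilson interval 80.5 to 92.1%) in B6/SPRT and 20.2% of 287 reads (16.0 to 25.2%) in CAST/SPRT. It was the only pair that lay above 75% in 1 mouse and below 25% in the other. The DMC1 reads reversed as well, from 92.7% B6 to 7.23%, and the DMC1 signal was 14.5 and 89.1, whereas the median paired hotspot had 183 and 27.6.

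The next fall was within Upf2, a factor of nonsense-mediated mRNA decay, on chromosome 2, with centers 83 bp apart at 5995602 and 5995519. The B6 fraction was 51.6% of 157 reads (43.8 to 59.3%) and 9.43% of 297 reads (6.60 to 13.3%), and DMC1 reads were 52.8 and 2.68% B6. Its DMC1 signal, too, was higher in CAST/SPRT, at 73.7 against 19.2. Neither of these 2 pairs had a partner among the SPRT hotspots of Hum/SPRT. On chromosome 5, 10.5 kb from Nom1, the fraction was 86.4% in B6/SPRT, 53.8% in CAST/SPRT and 88.5% in Hum/SPRT. There CAST/SPRT stood apart from the other two, and a further hotspot lay within 3 kb in B6/SPRT.

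The largest rises were at pairs where B6/SPRT stood apart. Within Rhpn2, named above for its rank, the B6 fraction was 56.3% of 520 reads in B6/SPRT, 94.7% of 152 reads in CAST/SPRT and 89.0% of 482 reads in Hum/SPRT. Within Cidec on chromosome 6, which encodes a lipid droplet protein, the values were 67.8, 97.2 and 91.3%. Within Gm32196 on chromosome 16 they were 69.4, 95.5 and 91.5%. In B6/SPRT the DMC1 reads at these 3 pairs were 85.1, 89.3 and 79.9% B6, above the H3K4me3 fraction each time. No other hotspot was listed within 3 kb of these 3 pairs in either table. A DMC1 fraction above that of H3K4me3 was not particular to them. In B6/SPRT the medians of DMC1 and H3K4me3 were 97.1 and 84.3% at pairs with 75 to 90% in Hum/SPRT. Above 90% they were 99.5 and 94.6%.

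The replacing allele was then compared with the SPRT allele of its own mouse. CAST hotspots were marked more strongly than SPRT hotspots, and B6 hotspots more weakly. The median ratio was 7.18 at CAST hotspots and 5.31 at SPRT hotspots of CAST/SPRT, a quotient of 1.35, and 2370 of 3470 CAST hotspots (68.3%, interval 66.7 to 69.8%) lay above the SPRT median. For the whole CAST/SPRT table the share was 55.6%. In B6/SPRT the medians were 6.73 at B6 and 9.32 at SPRT hotspots, a quotient of 0.723, and 1215 of 4122 B6 hotspots (29.5%, 28.1 to 30.9%) lay above the SPRT median, against 35.5% of the table. Set against the SPRT median of each autosome, over 50% of CAST hotspots lay above it on 19 of 19 autosomes (at least 61.1% of them) and over 50% of B6 hotspots on 0 (at most 36.1%). Hotspots were called from DMC1 in each mouse, and the B6/SPRT list reached weaker ones. Of the 50% of B6 and of CAST hotspots with the higher DMC1 signal, 46.9 and 83.3% lay above the median of all SPRT hotspots of their table. The SPRT hotspots were not cut by DMC1 signal, so these shares are not like for like. With the median of the paired SPRT hotspots alone, 17.5% of B6 and 68.3% of CAST hotspots lay above it.

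Few hotspots of the CAST and B6 alleles coincided. A B6 hotspot lay within 500 bp of 18 CAST hotspots, which is 0.519% of CAST and 0.437% of B6 hotspots. Over all 9592 hotspots of CAST/SPRT 56.5% had a B6/SPRT hotspot within that distance, and 98.1% of its SPRT hotspots had an SPRT partner. Alleles were assigned by comparison with hotspots of other mice, so this contrast is a description. The 4 strongest CAST hotspots outside gene starts lay within Frmd5 on chromosome 2, within Pex14, a peroxisomal import gene, on chromosome 4, within Nmnat3, which encodes a mitochondrial NAD-synthesizing enzyme, on chromosome 9 and within Sncb, the beta-synuclein gene, on chromosome 13. Their ratios were 35.2, 28.4, 28.2 and 28.0, and their B6 fractions 53.4, 55.6, 65.3 and 56.3%, all matched. The 4 strongest B6 hotspots lay within Gm36134 and Capzb, an actin-capping subunit gene, on chromosome 4, within Purb on chromosome 11 and within Dusp26, a phosphatase gene, on chromosome 8. In that order the ratios were 47.7, 34.9, 40.3 and 32.6 and the B6 fractions 58.5, 47.9, 49.6 and 55.5%. These 4 were matched as well. The DMC1 reads were not all so even: 30.3, 44.2, 7.69 and 34.0% were from B6. The hotspots at Purb and Sncb lay 1.28 and 1.85 kb from a gene start, not far beyond the 1 kb limit. Whether promoter H3K4me3 added to their ratios was not tested.

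B6 hotspots were marked mainly on the SPRT chromosome, and CAST hotspots slightly more on the B6 chromosome. The median B6 fraction was 37.3% at B6 hotspots (quartiles 20.8 and 54.8%) and 56.5% at CAST hotspots (47.3 and 69.5%). Pooled over 971212 reads, 37.6% came from B6 at B6 hotspots, and over 1312172 reads 57.0% at CAST hotspots. At B6 hotspots 1292 (32.5%) lay below 25% and 298 (7.50%) above 75%. At CAST hotspots 354 (10.4%) lay below 25% and 648 (19.1%) above 75%. With the background share removed, the median was 34.5% at B6 hotspots and 56.7% at CAST hotspots. Of B6 hotspots 39.3% then lay below 25% and 9.92% above 75%, and of CAST hotspots 10.7 and 19.8%. CAST hotspots were not all alike: as deposited, 425 of 3390 (12.5%) lay above 90%, where B6 hotspots had 90 of 3973 (2.27%). The shares above 90% were not computed without background.

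**Figure D3:**
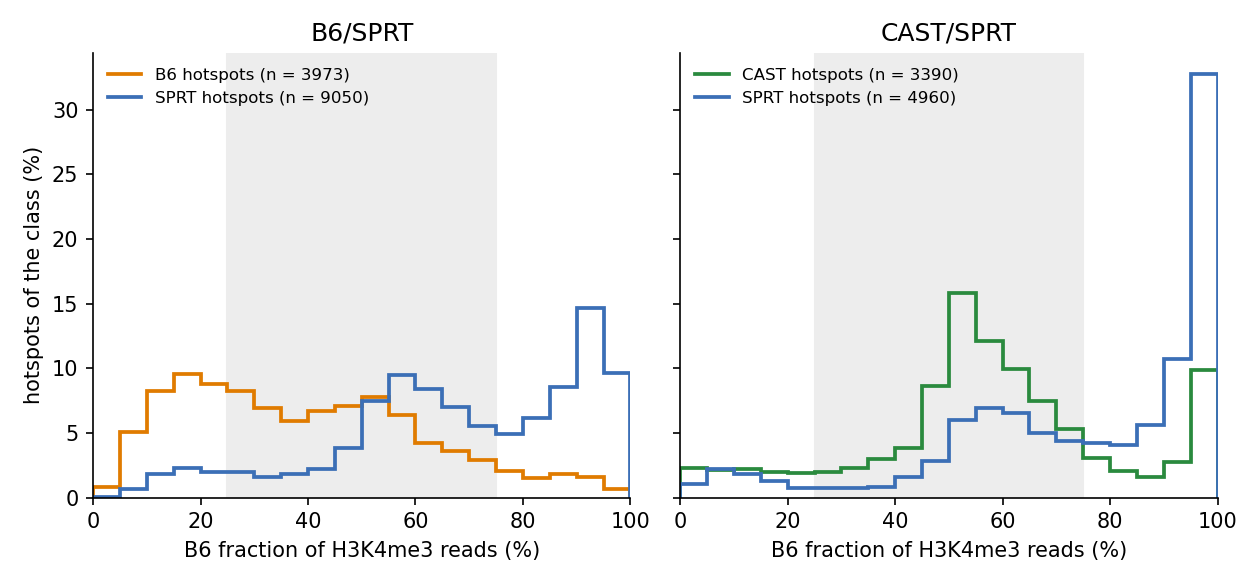
Distribution of the B6 fraction of H3K4me3 reads (percent, bins of 5 points) over B6 and SPRT hotspots in B6/SPRT (left) and over CAST and SPRT hotspots in CAST/SPRT (right), as a percentage of the hotspots of each class, with the matched range shaded. B6 hotspots spread broadly from 5 to 60% with a median of 37.3%, CAST hotspots gather around 50 to 60% with a second group above 95%, and SPRT hotspots reach their highest bin above 90% in both mice.

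Matched H3K4me3 was more frequent at CAST than at B6 hotspots. It was found at 2388 of 3390 CAST hotspots (70.4%, interval 68.9 to 72.0%), where the whole CAST/SPRT table had 47.8%. It was found at 2383 of 3973 B6 hotspots (59.98%, 58.4 to 61.5%), where the whole B6/SPRT table had 55.6%. The difference was 10.5 percentage points (8.30 to 12.6), and CAST was higher on 18 of 19 autosomes. On chromosome 10 it was 4.03 points lower, and on chromosome 19 it was 19.6 points higher. SPRT hotspots differed the other way, with 40.9% of the 4867 pairs matched in B6/SPRT and 35.7% in CAST/SPRT (38.1 and 34.6% without background). With the background share removed, 69.5% of CAST and 50.8% of B6 hotspots were matched, a difference of 18.7 points, and CAST was higher on 19 of 19 autosomes. In the narrower range of 40 to 60% the shares were 40.5 and 28.2%. In the wider range of 10 to 90% the order turned, with 83.0% of CAST and 91.9% of B6 hotspots inside. The shares of the narrower and the wider range are as deposited and were not computed without background.

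**Figure D4:**
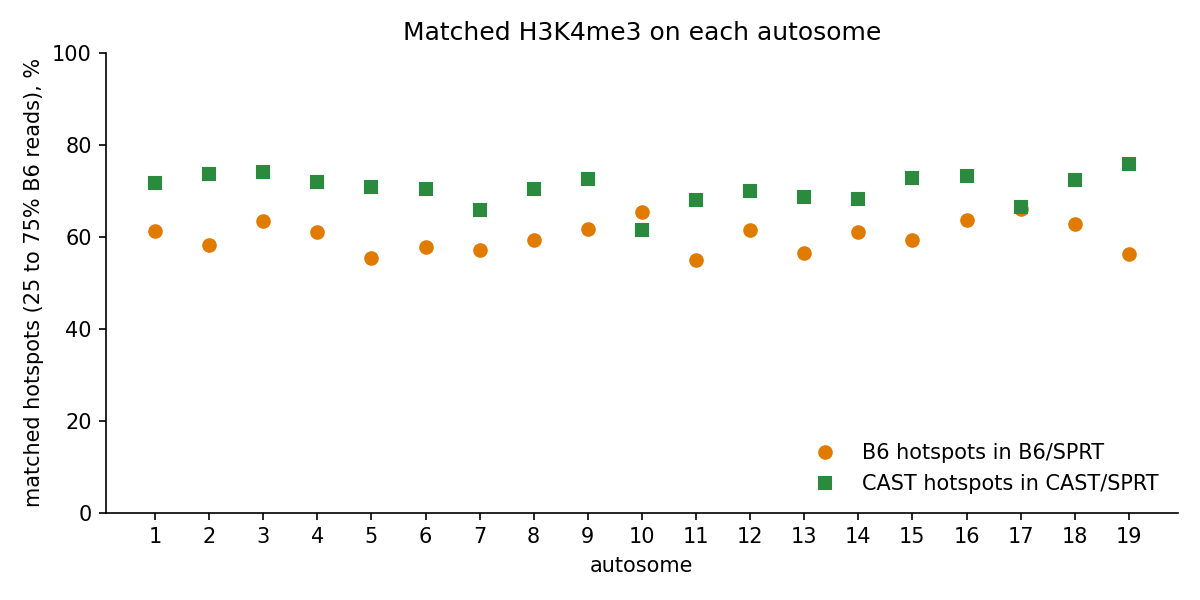
Share of hotspots (percent) with 25 to 75% of H3K4me3 reads from the B6 chromosome on each autosome, for B6 hotspots of B6/SPRT and CAST hotspots of CAST/SPRT. CAST points lie between 61.5 and 75.8% and B6 points between 54.9 and 66.0%, with B6 above CAST on chromosome 10 alone.

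The strongest CAST hotspots were the most often matched. The ratio counts reads of both homologs, so strength and matching are not independent measures, also for the strongest hotspots named above. Across quartiles of the ratio the matched share of CAST hotspots was 47.3, 65.3, 79.0 and 90.2%, a gain of 42.9 points (interval 39.0 to 46.8) that was positive on 19 of 19 autosomes. CAST hotspots above 75% thinned out at the same time, from 32.2 to 22.3, 14.8 and 7.19%, and those below 25% from 20.5 to 12.4, 6.26 and 2.59%. Median SNP-carrying reads rose with the quartile, from 155 to 656.5. With the background share removed the CAST shares were 45.2, 64.6, 78.2 and 89.98%.

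B6 hotspots had no such gain. Their matched shares were 71.0, 58.7, 53.5 and 56.8%, with -14.2 points from the bottom to the top quartile (interval -18.4 to -10.02) and a lower top quartile on 18 of 19 autosomes. With the assumed background share removed the shares were 54.2, 48.5, 47.4 and 53.0%, with -1.20 points from bottom to top (interval -5.59 to 3.18). The fall as deposited therefore depends on how background is treated, and its cause was not tested. A minimum of 100 reads left -7.12 points (interval -11.8 to -2.48). The gain of SPRT hotspots was 9.21 points in B6/SPRT and 21.7 in CAST/SPRT, and that of humanized hotspots in Hum/SPRT was 27.8.

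**Figure D5:**
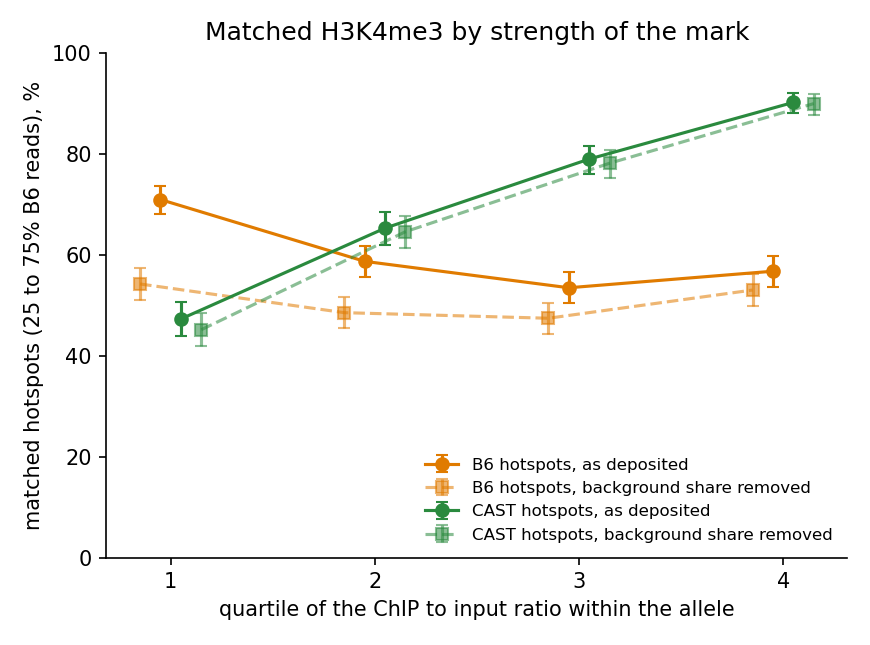
Share of B6 and CAST hotspots (percent, with Wilson intervals) with matched H3K4me3 by quartile of the ChIP to input ratio within each allele, as deposited (solid lines) and with the background share of reads removed (dashed lines). CAST rises from 47.3 to 90.2% and hardly moves when background is removed; B6 goes from 71.0 to 56.8% as deposited and from 54.2 to 53.0% with background removed.

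Hotspots matched in H3K4me3 were less often matched in DMC1 at B6 than at CAST hotspots. Of 1314 B6 hotspots with matched H3K4me3 and a DMC1 fraction, 612 (46.6%, interval 43.9 to 49.3%) also had 25 to 75% of DMC1 reads from B6, and 620 (47.2%) fell below 25%. Their median was 48.0% B6 in H3K4me3 and 26.7% in DMC1. Of 1644 such CAST hotspots 1306 (79.4%, 77.4 to 81.3%) were matched in DMC1 and 221 (13.4%) fell below 25%, with medians of 53.6 and 45.2%. In both alleles the DMC1 reads leaned further towards the SPRT chromosome than the H3K4me3 reads did. The depth of the DMC1 fractions is unknown. The matched H3K4me3 sets here are as deposited. Removing the background share lowered the matched share of B6 hotspots from 59.98 to 50.8% and that of CAST hotspots from 70.4 to 69.5%. The DMC1 shares were not computed for the sets without background.

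The 4222 SPRT hotspots of B6/SPRT without a partner were weaker than the 5025 with one. Their median ratio was 6.89 against 11.5 and their median DMC1 signal 51.7 against 183. Their B6 fraction was also nearer to parity, at a median of 62.5% against 78.1%, and 59.6% of them were matched against 41.1%. SPRT hotspots of both tables as a whole therefore compare different sets, and the paired values above are the like-for-like ones. Few pairs lay near the limits that defined them. Centers were 400 to 500 bp apart at 14 pairs, with a median difference in B6 fraction of 0.823 points, and 500 to 600 bp apart at 2, with -10.4 points. Of B6 hotspots with 50 to 59 reads 80.4% of 107 were matched, and with 40 to 49 reads 84.1% of 69. For CAST hotspots the shares were 56.5% of 23 and 60% of 15. The 98 unpaired SPRT hotspots of CAST/SPRT had a median ratio of 5.05, against 5.31 for the paired ones.

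Few hotspots lay at promoters, where H3K4me3 is also placed by other enzymes. Leaving out chromosome 18, whose gene starts were not used here, 1.62% of B6 hotspots, 1.84% of CAST hotspots and 1.57 and 1.62% of SPRT hotspots in B6/SPRT and CAST/SPRT lay within 1 kb of a gene start. Their median ratio was higher, at 9.16 against 6.77 for B6 and 10.3 against 7.11 for CAST. The median B6 fraction was little different there, at 39.7 against 37.3% for B6 and 56.2 against 56.5% for CAST. The matched share was 69.8% of 63 hotspots against 59.7% for B6, and 70.5% of 61 against 70.3% for CAST.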

How the data were processed

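H3K4me3 ChIP-seq with input and DMC1 SSDS (single-stranded DNA sequencing) were made from whole adult testis. The submitters' processing notes name BWA and mm10. The authors called hotspots from DMC1, assigned PRDM9 alleles and homologs, and deposited 1 table per genotype. It holds counts of ChIP and input coverage in 1000 bp windows, a ratio of enrichment whose formula is not stated, the fraction of SNP-carrying H3K4me3 and DMC1 reads from B6 with the number of H3K4me3 reads, and a DMC1 signal in the authors' own scale. The deposited counts of SNP-carrying reads exceed ChIP coverage (median 1.67-fold in B6/SPRT), so what each counts is not fully clear. Pooling over samples was taken, not stated. A further 17 columns of values were not used.

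Hotspots were paired 1 to 1, nearest centers first, within 500 bp. Named hotspots, on autosomes other than 18 with input of at least 10 and 50 reads, were the 4 CAST and 4 B6 hotspots with the highest ratio over 1 kb from a gene start, the 3 SPRT pairs with the largest rise and fall in B6 fraction and in rank, and the 3 strongest in both. The 3 sequences were chosen from 8 windows after their values were seen. Members and lists were chosen with earlier results of these data known. Genes come from GRCm38.p6 tables without exons. Shares have 95% Wilson intervals, medians order-statistic intervals and differences normal intervals, all for these pooled libraries only. The steps ran under Python 3.11.15 with scipy 1.17.1 for intervals, pandas 2.3.3 for tables and matplotlib 3.10.9 for plots, and were first tested on simulated data. Alternatives covered pairing distance, read and input minimums, pseudocount, the authors' enrichment, matched limits, gene starts, chromosome 17 and, chosen after seeing the data, background, ChIP coverage alone and DMC1 signal.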

Additional observations from a re-analysis of the deposited data

How the results depend on the processing

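No paired analysis was possible because the deposited H3K4me3 columns carry no replicate numbers, and for the same reason no sample could be left out. There were 74 alternatives over 9 results, 41 of them planned. Of the 74, 54 gave a value inside the 95% interval of the reported one, 20 lay outside it and 0 changed sign. A change of sign was possible only for the median difference in B6 fraction and the differences between top and bottom quartile. The other results are shares, which cannot be negative. The order of the CAST and B6 matched shares was not among the 9 results, and it turned with the wider matched limits.

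Pairing distance, the input minimum, the pseudocount, the authors' enrichment, gene starts (which also drops chromosome 18) and chromosome 17 were all among the 54. Ranking ChIP coverage alone put 72.9% of SPRT pairs within 10 percentile points. A minimum of 100 reads gave 7.89% of pairs with B6 fractions over 10 points apart, 57.7% of B6 hotspots matched and -7.12 points between the top and bottom quartile of B6 hotspots. Removing the background share gave 8.51% of pairs over 10 points apart, a median difference of 0.165 points, 50.8% of B6 hotspots matched and -1.20 points between their quartiles. Limits of 40 to 60% gave 40.5% of CAST and 28.2% of B6 hotspots matched and quartile differences of 34.3 points for CAST and -6.65 for B6. Limits of 10 to 90% gave 83.0 and 91.9%, and a quartile difference of 29.5 points for CAST. The 50% of CAST and of B6 hotspots with the higher DMC1 signal had 75.6 and 46.4% matched, and 83.3 and 46.9% above the median of all SPRT hotspots. The median of the paired SPRT hotspots left 17.5% of B6 hotspots above it. Beyond the fewer hotspots or altered limits of each setting, the cause was not tested.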
